A study of Mus musculus with 8 samples.

Results

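The genes followed here were Cul1, Xpo7, Trio, Sp4, Herc1 and Rb1cc1, the mouse counterparts of human genes in which rare damaging variants have been tied to schizophrenia risk beside SETD1A, the gene mutated in this study. They were taken by symbol, as 6 of the 31053 genes counted, and the selection rule uses no measured value, although earlier results of these data were known when the set was proposed. Single-cell RNA sequencing had been applied to prefrontal cortex (PFC) and striatum of WT and Setd1a+/- mice. All mice were male on the C57BL/6N background, aged 8 to 10 weeks per the labels (the methods of the study state an older age), and the WT mice were littermates. The Setd1a+/- mice carry, on 1 allele, a CRISPR-Cas9 frameshift deletion in exon 15, ahead of the catalytic SET domain, in every cell of the body. Each tissue was represented by 2 WT and 2 Setd1a+/- libraries, and each library pooled tissue from 2 mice. The labels name the second tissue as nucleus accumbens and the study describes dorsal and ventral striatum, and it is called striatum here.

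The 6 proteins act in several pathways. Cul1 is the scaffold of the SCF ubiquitin ligases, which mark substrates for the proteasome, and Herc1 is a giant HECT-domain ubiquitin ligase. Xpo7 carries proteins across the nuclear pore as an exportin of the karyopherin family. Trio is a guanine nucleotide exchange factor that activates small GTPases such as Rac and so shapes the actin cytoskeleton in growing processes. Sp4 is a zinc-finger transcription factor of the Sp family, which binds GC boxes in promoters, and Rb1cc1 (also called FIP200) is the scaffold of the ULK1 complex that starts autophagy. Cells of the oligodendrocyte lineage pass from the oligodendrocyte progenitor cell (OPC) through the newly formed oligodendrocyte (NFO) to the mature myelinating oligodendrocyte.

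In the mouse genome (GRCm38) the genes lie at chr6:47453398-47526139 (Cul1, plus strand), chr14:70654246-70766628 (Xpo7, minus strand), chr15:27730651-28025848 (Trio, minus strand), chr12:118234933-118301440 (Sp4, minus strand), chr9:66350450-66508775 (Herc1, plus strand) and chr1:6206197-6276648 (Rb1cc1, plus strand). The largest exon count of any annotated transcript ranges from 6 (Sp4) to 78 (Herc1). Xpo7 overlaps Npm2 on its own strand, so its values are uncertain to the extent that reads were shared. RefSeq promoter sequence was found for Cul1, Trio, Sp4 and Herc1. The 250 bases upstream of the start of Trio and of Herc1 are shown because these members differed most between cell types, and those of Sp4 because its own family binds the motif marked. Capitals mark each GC box, searched as GGGCGG on either strand (CCGCCC when read on the printed strand), and each sequence is written 5′ to 3′ on the strand of the gene (GRCm38.p6).
Trio, chr15:28025849-28026098, minus strand: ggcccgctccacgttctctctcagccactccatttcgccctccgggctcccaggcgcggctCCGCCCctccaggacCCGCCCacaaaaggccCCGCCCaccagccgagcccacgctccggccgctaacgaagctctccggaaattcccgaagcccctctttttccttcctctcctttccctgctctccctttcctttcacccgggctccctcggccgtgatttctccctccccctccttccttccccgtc
Herc1, chr9:66350200-66350449, plus strand: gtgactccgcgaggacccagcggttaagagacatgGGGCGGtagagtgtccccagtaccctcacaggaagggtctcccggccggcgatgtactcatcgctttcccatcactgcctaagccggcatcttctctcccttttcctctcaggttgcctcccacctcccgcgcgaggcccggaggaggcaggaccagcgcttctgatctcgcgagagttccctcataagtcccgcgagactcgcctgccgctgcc
Sp4, chr12:118301441-118301690, minus strand: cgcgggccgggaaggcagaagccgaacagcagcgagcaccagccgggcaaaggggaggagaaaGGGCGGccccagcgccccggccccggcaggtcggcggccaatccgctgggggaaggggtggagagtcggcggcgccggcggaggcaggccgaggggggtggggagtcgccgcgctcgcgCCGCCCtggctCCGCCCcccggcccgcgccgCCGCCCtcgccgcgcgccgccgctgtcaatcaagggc
The Trio sequence holds 3 GC boxes, the Herc1 sequence 1 and the Sp4 sequence 4. A GC box was present in 5 of the 6 entries for members (Cul1 has 3 entries) and in 32.7% of all 32851 promoter entries of the same length. The 5 entries with a box have 63.6% to 80% GC and the other 50.8%, beside a median of 52.4% over all entries. These shares were not matched for GC content. The GC-box matches describe the sequence only.

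Counts of unique molecular identifiers (UMIs) were available for 23687 cells that the authors had annotated, 8997 from PFC and 14690 from striatum, with 6.00e+06 to 1.35e+07 UMIs in annotated cells per library and a median of 2302.5 to 3042 UMIs per cell. Levels are UMIs summed per library and cell type as CPM, scaled to the UMI total of that library and type. Such scaling alone shifted the median of all genes between types of the oligodendrocyte lineage, as given below. The orders of levels carry this shift. A UMI stands for a molecule, so that no length correction was needed, and errors are given as SD over the 4 libraries of a tissue. The cell types were defined by clustering of the same expression values. Of their defining markers, 24 of 24 in PFC and 28 of 30 in striatum were highest in the named type, with Gad2 of the striatal interneuron list among the exceptions. Pairs of libraries shared 1 to 24 cell barcodes, at most 0.877% of the smaller library. Snap25, a synaptic gene, gave a UMI in 19.8% of PFC oligodendrocytes (median depth 2056 UMIs) beside 99.5% of excitatory neurons (6546 UMIs), and the parts of free RNA and doublets in that share were not tested. Setd1a itself stood at 8.45 and 11.2 CPM in WT against 5.59 and 9.33 CPM in Setd1a+/- PFC libraries, and at 13.4 and 15.2 against 9.16 and 12.5 CPM in striatum. Paired by replicate number, the Setd1a+/- library was the lower in each pair of both tissues. Unpaired, the genotypes overlapped in PFC and did not in striatum. The 3′ counting does not read the deleted bases.

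Trio was the member with the sharpest cell-type pattern: its level was highest in NFOs in all 4 libraries of both tissues and close to zero in mature oligodendrocytes. In PFC NFOs it was 333 and 245 CPM in the WT libraries and 316 and 287 CPM in the Setd1a+/- libraries (295 ± 38.6, n = 4). In striatal NFOs the values were 284 and 243 CPM in WT against 295 and 252 CPM in Setd1a+/- libraries (269 ± 24.7). The genotypes overlapped in both tissues, and the lowest NFO library stood above the highest library of any other type.

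OPCs, the stage before, held intermediate Trio levels. The PFC libraries gave 92.9 and 79.5 CPM in WT against 105 and 112 CPM in Setd1a+/- mice, and the striatal libraries 87.5 and 92.0 CPM and 100.3 and 92.5 CPM. Mature oligodendrocytes had 2.32 and 12.3 CPM in WT against 8.92 and 1.43 CPM in Setd1a+/- PFC, from 22 UMIs in 1694 cells, and 4.23 ± 1.47 CPM in striatum, from 20 UMIs in 2345 cells. The 3 stages did not overlap in any pair of libraries of either tissue. The mean in NFOs was 47.3 times that in oligodendrocytes in PFC and 63.5 times in striatum, ratios that rest on the few oligodendrocyte UMIs. The fitted log2 FC (edgeR) between these types in PFC, 5.29, ranged from 4.66 without WT replicate 1 to 5.87 without WT replicate 2, and that in striatum, 5.85, from 5.61 to 5.92 over the fits that left out a library. Barcodes with 10 to 100 UMIs, taken as a measure of free RNA, held Trio at 55.5 CPM in PFC and 57.9 CPM in striatum, above its level in oligodendrocytes.

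**Figure D1:**
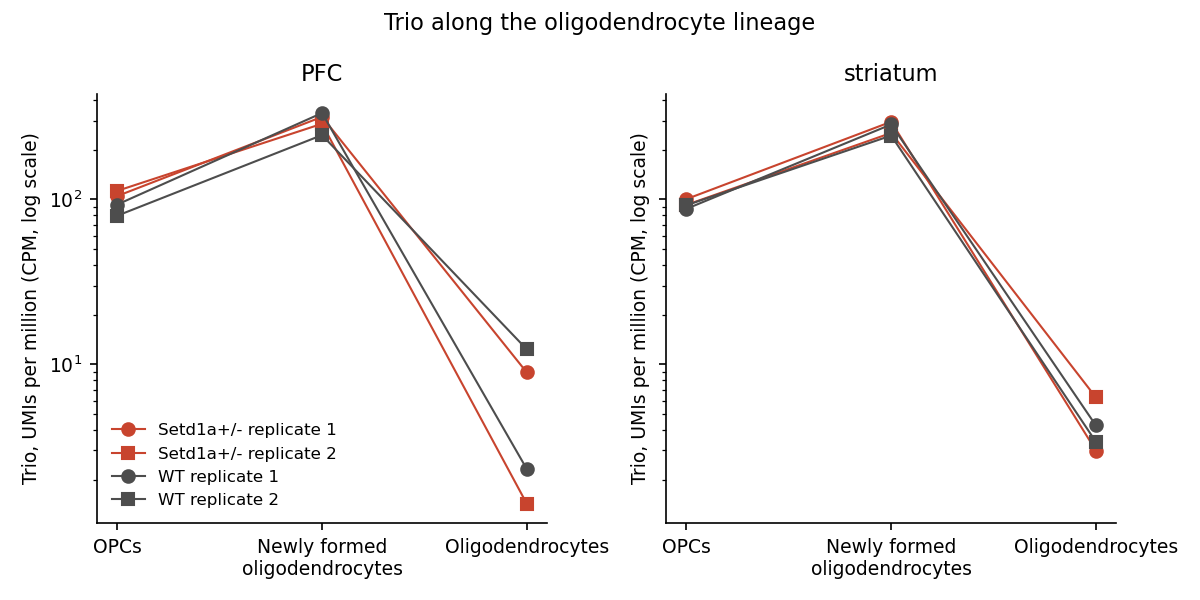
Trio level in CPM (y axis) along the oligodendrocyte lineage (x axis) in PFC and striatum. Each library is drawn in the color of its genotype, with 1 point per stage. The PFC means of the 4 libraries are 97.4 CPM in OPCs, 295 CPM in NFOs and 6.25 CPM in oligodendrocytes. The stages do not overlap.

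In edgeR's quasi-likelihood test with library as a block, Trio was higher in OPCs than in oligodendrocytes by 3.49 ± 0.31 (log2 FC ± SE, FDR = 4.06e-09) in PFC and 4.16 ± 0.25 (FDR = 3.07e-16) in striatum. A gene was called at FDR < 0.05 and FC > 1.5, with Benjamini-Hochberg adjustment over all genes tested. Trio was the 1 member called of 6 tested in PFC and of 5 tested in striatum, where 25.8% and 28.5% of all genes tested were called higher in OPCs. The comparisons with NFOs were added after Trio levels had been seen. Trio in NFOs exceeded that in OPCs by 1.72 ± 0.15 (edgeR FDR = 6.75e-20) in PFC and 1.6 ± 0.17 (FDR = 9.53e-08) in striatum, where 15.5% and 13.6% of genes were called higher. Against oligodendrocytes the difference was 5.29 ± 0.28 (edgeR FDR = 9.21e-12) and 5.85 ± 0.25 (FDR = 5.89e-10), with 20.5% and 20.8% of genes called higher. Every alternative setting tried kept these 6 Trio calls. With library as a block, these p-values test the difference between the stages within libraries of pooled mice. Their variance estimate draws on all genes of a fit, not on the libraries of Trio alone. The stages are clusters of the same expression values, which the p-values do not account for.

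By cells, a Trio UMI was found in 55.1% of PFC NFOs, 15.9% of OPCs and 1.15% of oligodendrocytes, and in 51.5%, 13.4% and 0.997% in striatum. After thinning every cell to 1000 UMIs the shares were 24.7%, 9.28% and 0.483% in PFC and 24.0%, 8.55% and 0.470% in striatum, in the same order. Since the oligodendrocyte level lay under that of the low-UMI barcodes, no expression was read from this share. NFOs made up 3.28% of PFC cells, 2.59% of all PFC UMIs and 11.6% of PFC Trio UMIs. Excitatory neurons supplied 61.2% of Trio UMIs and 55.2% of all UMIs. The smallest library gave 35 NFOs in PFC and 22 in striatum.

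Outside the lineage, Trio was 76.0 ± 8.35 CPM in PFC excitatory neurons and 69.1 ± 21.3 CPM in interneurons, whose libraries overlapped. Endothelial cells had 54.3 ± 4.26 CPM, microglia 31.4 ± 17.8 CPM and astrocytes 11.8 ± 4.04 CPM. In striatum, interneurons had 75.2 ± 19.4 CPM, D1 medium spiny neurons (MSNs) 63.9 ± 7.96 CPM and D2 MSNs 53.5 ± 4.33 CPM. Striatal astrocytes had 29.2 and 16.3 CPM in WT against 19.2 and 84.9 CPM in Setd1a+/- libraries, the last from 31 cells. Of 7 pairs of neighboring types in PFC and 9 in striatum, 2 and 6 differed by less than the larger SD. The 3 genes whose levels over the 18 tissue and cell-type groups were most like those of Trio were 4430402I18Rik (Pearson r = 0.91), Spats2 (r = 0.89) and Polr1d (r = 0.89), among 11019 genes compared. All 3 were highest in PFC NFOs, and the groups share libraries and depth.

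Among the other members in the lineage, Rb1cc1 was lower in PFC NFOs than in OPCs by a log2 FC of -0.64 ± 0.27 (edgeR FDR = 0.0442), 1 of 5 members tested to be called lower beside 17.9% of all genes. The NFO libraries held 47.6, 40.8, 39.0 and 26.9 CPM and the OPC libraries 79.5, 60.0, 79.0 and 26.8 CPM, so that the last library did not separate the stages. This call was lost without the low-count filter, with DESeq2 and when WT replicate 1, WT replicate 2 or Setd1a+/- replicate 1 was left out. In striatum Rb1cc1 fell under the low-count filter of this comparison, with 47.7 ± 24.4 CPM in NFOs and 45.9 ± 21.1 CPM in OPCs. Cul1 had a log2 FC of -0.41 ± 0.16 (edgeR FDR = 0.0279) between OPCs and oligodendrocytes of PFC and -0.54 ± 0.17 (FDR = 0.00592) in striatum, short of the FC cutoff. Scaling by library size alone put the median of all genes at 0.60 in PFC and 0.61 in striatum, in place of 0.00490 and 0.0876, raised the share of calls that were higher in OPCs from 51.6% to 78.9% and from 56.6% to 79.7%, and put the Cul1 value at 0.18 in PFC and -0.019 in striatum. No direction is read for Cul1 from these values.

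Herc1, the giant ubiquitin ligase, had the largest difference between neurons and other cells in PFC. In PFC excitatory neurons it stood at 219 and 208 CPM in WT against 219 and 229 CPM in Setd1a+/- libraries (219 ± 8.36). These 4 values lay above every other PFC type in each library. Interneurons had 180 and 133 CPM in WT against 111 and 159 CPM in Setd1a+/- libraries. Endothelial cells followed with 110 ± 22.2 CPM, and OPCs, microglia, astrocytes, oligodendrocytes and NFOs had means of 56.6 to 36.3 CPM. Oligodendrocytes, at 36.7 CPM, and NFOs differed by less than the larger SD. Between OPCs and oligodendrocytes the fitted log2 FC of Herc1 (edgeR) was 0.07. Excitatory neurons supplied 78.9% of PFC Herc1 UMIs and 55.2% of all UMIs.

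In striatum, Herc1 reached 120 ± 11.3 CPM in interneurons, 108 ± 9.62 CPM in D1 MSNs and 101 ± 3.52 CPM in D2 MSNs. Endothelial cells were at 94.2 ± 12.6 CPM, and differed from the D2 MSNs by less than the larger SD. Microglia had 77.2 ± 19.6 CPM in striatum beside 46.5 ± 25.2 CPM in PFC. Snap25 gave a UMI in 41.7% of striatal and 17.2% of PFC microglia, and the part of free or neuronal RNA in these values was not tested. Striatal NFOs had the lowest mean, 26.2 ± 4.27 CPM, and differed from oligodendrocytes, at 32.5 ± 13.1 CPM, by less than the larger SD. Low-UMI barcodes held Herc1 at 142 ± 25.1 CPM in PFC and 107 ± 19.3 CPM in striatum. The means of PFC endothelial cells and of all lower PFC types lay under that level. In striatum only interneurons and D1 MSNs had means above it.

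**Figure D2:**
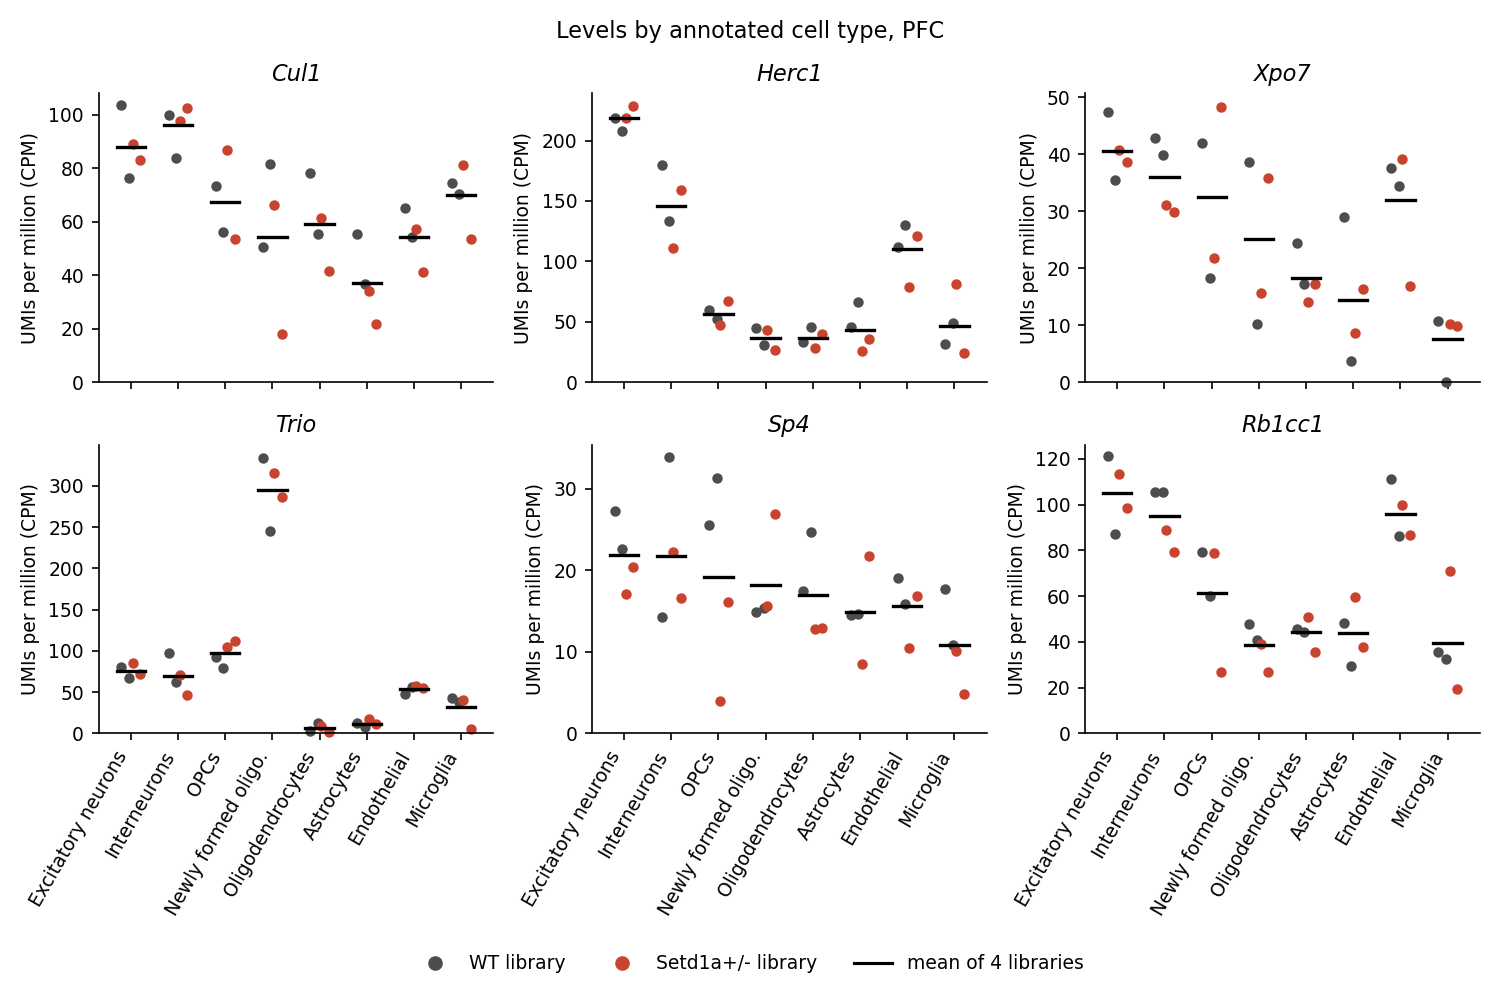
Level of each of the 6 genes in CPM (y axis, scaled per gene) in the 8 PFC cell types (x axis), 1 point per library in the color of its genotype, with a black bar for the mean of the 4 libraries. Trio peaks in NFOs at 295 CPM and Herc1 in excitatory neurons at 219 CPM, while Cul1, Xpo7, Sp4 and Rb1cc1 span a narrower range.

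Neurons were compared with the 6 non-neuronal types summed, and the 437 striatal cells of the neural stem cell and neuroblast group entered neither class. In PFC, Herc1 held 215, 203, 209 and 223 CPM in neurons against 65.4, 69.6, 55.9 and 57.1 CPM in non-neuronal cells. The classes did not overlap, with a log2 FC of 1.66 ± 0.10 (edgeR FDR = 1.22e-07). The striatal neurons held 110, 102, 105 and 115 CPM against 50.9, 66.8, 49.8 and 78.1 CPM, a log2 FC of 0.77 ± 0.10 (FDR = 6.58e-05). Both calls remained in all 11 alternatives. Between the neurons of PFC, Herc1 was higher in excitatory neurons than in interneurons by 0.59 ± 0.11 (edgeR FDR = 2.49e-05), the 1 member called of 6 beside 14.4% of all genes. Its FC lay just over the cutoff, and it fell under it without PFC WT replicate 2 (log2 FC 0.58) and without Setd1a+/- replicate 1 (0.49).

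All 6 members had a positive difference between neurons and non-neuronal cells in both tissues, and 3 were called in PFC and 2 in striatum, where 31.5% and 27.4% of all genes were called higher. The median over the members was 0.55 in PFC and 0.44 in striatum, beside -0.02 and -0.03 over all genes tested. Rb1cc1, the autophagy scaffold, held 120, 88.4, 111 and 97.2 CPM in PFC neurons and 71.9, 56.6, 76.6 and 42.3 CPM in non-neuronal cells, with a log2 FC of 0.64 ± 0.11 (edgeR FDR = 0.000302). Xpo7, the exportin, had 47.0, 35.8, 39.8 and 37.9 CPM against 30.9, 19.1, 25.9 and 22.5 CPM, with a log2 FC of 0.59 ± 0.12 (FDR = 0.00112). The Rb1cc1 call was lost without Setd1a+/- replicate 2 (0.57). That of Xpo7, whose FC also lay just over the cutoff, was lost in 4 of 11 alternatives, among them the one without WT replicate 2 (0.48). In striatum neither was called. Rb1cc1 had 65.9, 55.4, 76.7 and 53.4 CPM in neurons and 47.3, 44.2, 56.2 and 59.5 CPM in non-neuronal cells, which overlapped, with a log2 FC of 0.23 ± 0.10 (edgeR FDR = 0.0639). Xpo7 had 39.1, 33.0, 39.1 and 27.7 CPM against 23.5, 25.0, 21.0 and 27.0 CPM, with a log2 FC of 0.50 ± 0.12 (FDR = 0.00403), under the fold cutoff, which it passed without Setd1a+/- replicate 2 (0.59).

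Sp4, the transcription factor, was called in striatum. Neurons held 16.6, 17.1, 19.5 and 23.0 CPM and non-neuronal cells 9.58, 9.51, 8.03 and 17.7 CPM, with a log2 FC of 0.78 ± 0.15 (edgeR FDR = 0.000954) that remained in all 11 alternatives. The non-neuronal value of Setd1a+/- replicate 2 overlapped the neuronal range, and that library held 496 non-neuronal cells beside 1748 to 2525 in the other striatal libraries. In PFC the Sp4 value was 0.29 ± 0.14 (edgeR FDR = 0.0888). Cul1, the SCF scaffold, had values of 0.51 ± 0.11 in PFC (FDR = 0.00145) and 0.31 ± 0.09 in striatum (FDR = 0.0131), both under the FC cutoff.

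Trio depended on the make-up of the non-neuronal class. Its log2 FC was 0.28 ± 0.10 in PFC (edgeR FDR = 0.0217) and 0.38 ± 0.11 in striatum (FDR = 0.0108), under the FC cutoff. With NFOs left out, a choice made after seeing the data, it became 0.76 in PFC and 0.63 in striatum, a rise that follows from removing the type with the highest level. With endothelial cells and microglia left out, it was 0.028 in PFC and 0.28 in striatum. Over all 11 alternatives, the log2 FC of Trio ran from 0.028 to 0.94 in PFC and from 0.28 to 0.63 in striatum.

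**Figure D3:**
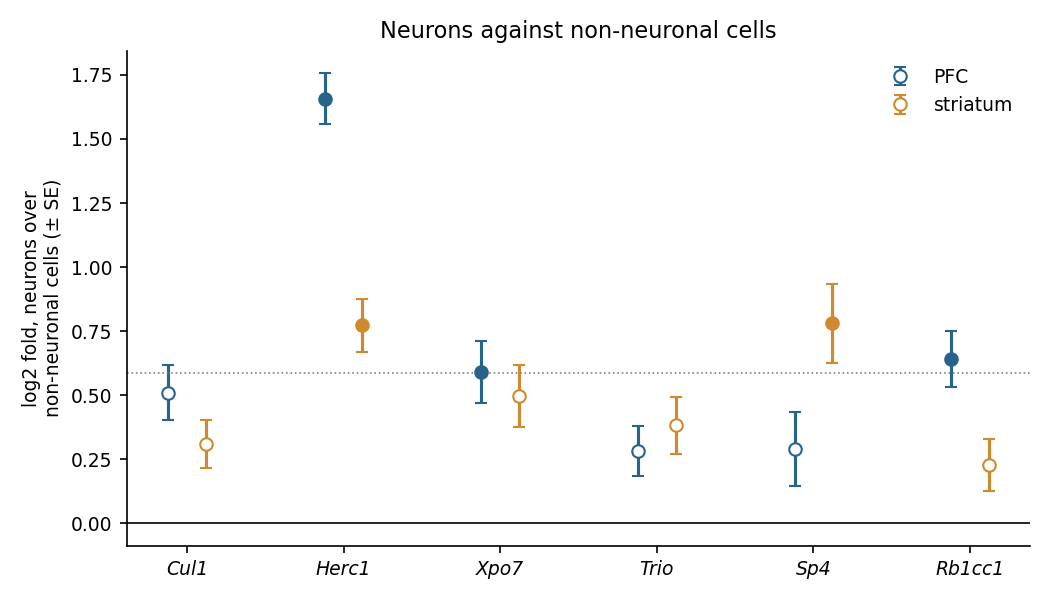
Difference between neurons and non-neuronal cells for each of the 6 genes, as log2 FC with its SE (edgeR), in PFC and striatum. Filled symbols are called at FDR < 0.05 and FC > 1.5, and the dotted line marks an FC of 1.5. Herc1 is the farthest to the neuronal side in PFC, at 1.66, and Sp4 and Herc1 are called in striatum at 0.78 and 0.77.

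By cell type, the 4 remaining members spread less. Cul1 was 96.0 ± 8.47 CPM in PFC interneurons and 88.0 ± 11.7 CPM in excitatory neurons, down to 37.0 ± 14.0 CPM in astrocytes, a ratio of 2.59 between highest and lowest type. In striatum its ratio was 1.61, from 71.1 ± 7.36 CPM in interneurons to 44.2 ± 21.8 CPM in the neural stem cell and neuroblast group, and all 9 pairs of neighboring types differed by less than the larger SD. Rb1cc1 was 105 ± 15.1 CPM in PFC excitatory neurons, 96.0 ± 11.9 CPM in endothelial cells and 94.9 ± 13.0 CPM in interneurons, and 38.6 ± 8.63 CPM in NFOs. In striatum it was 78.6 ± 15.9 CPM in interneurons, 70.1 ± 11.2 CPM in endothelial cells, 61.5 ± 20.8 CPM in microglia, 60.3 ± 9.89 CPM in D2 MSNs and 59.2 ± 10.7 CPM in D1 MSNs, and neighbors in this order differed by less than the larger SD.

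Xpo7 was 40.5 ± 5.05 CPM in PFC excitatory neurons and 7.63 ± 5.10 CPM in microglia, where 9 UMIs were found in 482 cells. In striatum its highest mean was 36.7 ± 5.15 CPM in interneurons and its lowest 17.2 ± 5.35 CPM in oligodendrocytes. Sp4 was the scarcest member, with 21.8 ± 4.27 CPM in PFC excitatory neurons, 21.7 ± 8.75 CPM in interneurons and 21.1 ± 2.16 CPM in D1 MSNs. Its lowest level was 5.38 ± 6.39 CPM in striatal microglia, from 5 UMIs in 271 cells, with 0 UMIs in 2 of the 4 libraries. Neighbors in the order of Xpo7 and of Sp4 all differed by less than the larger SD in both tissues.

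**Figure D4:**
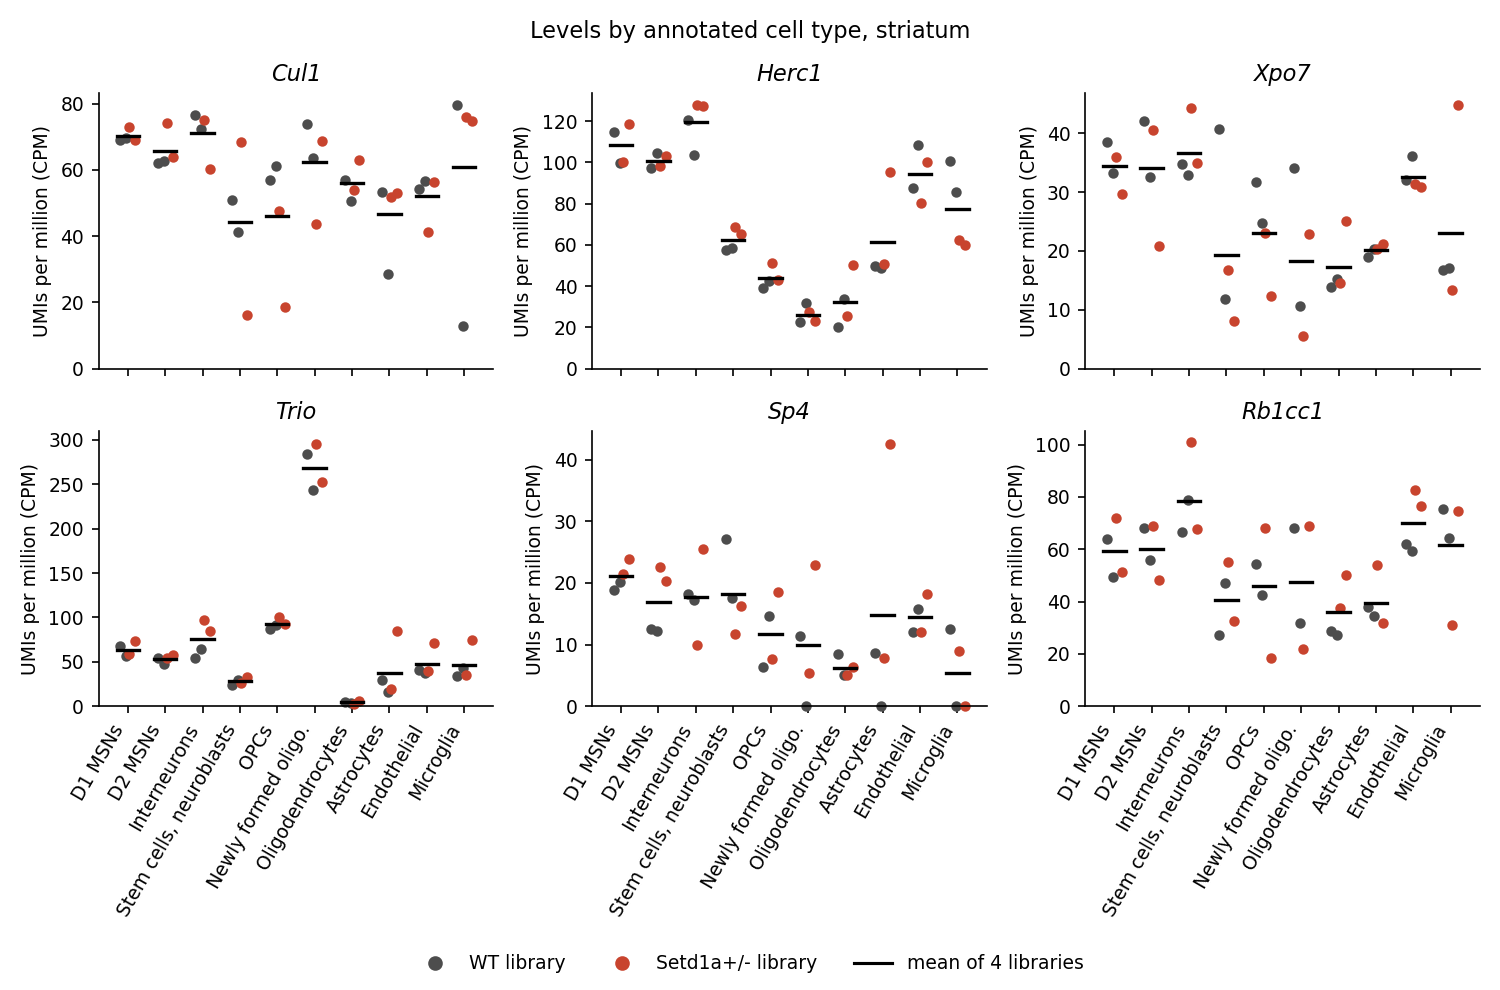
Level of each of the 6 genes in CPM (y axis, scaled per gene) in the 10 striatal cell types (x axis), 1 point per library in the color of its genotype, with a black bar for the mean of the 4 libraries. Trio peaks in NFOs at 269 CPM, and the isolated high Trio point in astrocytes, 84.9 CPM, comes from 31 cells.

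The shares of cells with a UMI moved with depth. A Herc1 UMI was found in 71.0% of PFC excitatory neurons and 29.2% of D1 MSNs, and in 19.8% and 10.1% after thinning to 1000 UMIs. For Cul1 the corresponding shares were 44.1% and 20.4%, and 8.69% and 6.85% after thinning. Sp4 was found in 14.0% and 6.64% of these cells, and in 2.14% and 2.02% after thinning. Low-UMI barcodes held Sp4 at 17.8 CPM in PFC and 15.5 CPM in striatum, Xpo7 at 31.8 and 30.8 CPM, Cul1 at 65.9 and 62.6 CPM and Rb1cc1 at 54.1 and 41.2 CPM. In PFC, the oligodendrocyte and astrocyte means of each of these members lay under these values, and the OPC means above. The part of free RNA in the members' levels was not tested.

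Over the 18 tissue and cell-type groups, the members with the most similar levels were Herc1 and Rb1cc1 (Pearson r = 0.89), and those least similar were Trio and Sp4 (r = 0.12). Genes most like Herc1 included Fam103a1 (r = 0.95) and Plxna2 (r = 0.94), a semaphorin receptor. The closest to Rb1cc1 was Taok1 (r = 0.93), to Xpo7 Ralgapb (r = 0.95), to Cul1 Dgkd (r = 0.89) and to Sp4 Ggps1 (r = 0.88). These values are descriptions over groups that share libraries.

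Among the 7 subtypes of PFC excitatory neurons, named by layer (deep, DL, or superficial, SL) and a marker gene, the ratio of the highest to the lowest mean was 1.29 for Cul1 and Xpo7, 1.44 for Herc1, 1.51 for Rb1cc1, 1.69 for Trio and 1.95 for Sp4. Herc1 ranged from 249 ± 32.1 CPM in DL-Nnat to 172 ± 24.2 CPM in DL-Pou3f1 (62 cells), with a step beyond the larger SD between DL-Foxp2 and SL-Cux2, and Trio from 90.9 ± 26.7 CPM in SL-Myh7 to 53.7 ± 12.8 CPM in DL-Tshz2. No member was called between deep and superficial subtypes, where 5.88% of genes were called higher in the deep ones. Herc1 came closest, with a log2 FC of 0.31 ± 0.09 (edgeR FDR = 0.0116). It held 218, 220, 229 and 266 CPM in deep and 220, 176, 192 and 167 CPM in superficial neurons, and WT replicate 1 showed no difference. Between D1 and D2 MSNs no member was called either, beside 2.95% of genes called higher in D1 MSNs. Sp4 had the largest value, 0.33 ± 0.15 (edgeR FDR = 0.157), and Trio had 0.19 ± 0.09 (FDR = 0.172).

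For the 7 cell types present in both tissues, 1 of 31 member tests between PFC and striatum was called, beside 6.63% of tests over all genes. It was Sp4 in oligodendrocytes, where 2.7% of genes were called. The PFC libraries held 17.4 and 24.6 CPM in WT against 12.7 and 12.9 CPM in Setd1a+/- mice, and the striatal libraries 8.50 and 5.08 CPM and 5.14 and 6.29 CPM, from 69 and 35 UMIs. The tissues did not overlap, and the log2 FC was 1.35 ± 0.31 (edgeR FDR = 0.0383). Tissue cannot be told apart from its dissection and libraries here. Snap25 gave a UMI in 19.8% of PFC and 11.3% of striatal oligodendrocytes, and low-UMI barcodes held Sp4 at 17.8 and 15.5 CPM. The part of free RNA in the Sp4 values was not tested. The call was lost with DESeq2 and in 7 of the 8 fits that left out a library, all but the one without striatal Setd1a+/- replicate 2, with FDR from 0.0117 to 0.171 over the alternatives.

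Between genotypes no member was called in any cell type or subtype. This held for 34 member tests in PFC, 46 in striatum and 35 in excitatory neuron subtypes, and 14, 14 and 1 further combinations of member and type fell under the count filter. Over all genes 0%, 0.00544% and 0% of edgeR tests were called. The FC cutoff was 2 for the striatal types. At an unadjusted p < 0.05 there were 1, 2 and 1 member tests, or 2.94%, 4.35% and 2.86%, beside 1.7%, 2.62% and 1.6% over all genes. With 2 libraries per genotype, the SE of a member was 0.15 to 0.30 on the log2 scale in the largest neuronal types, and changes of that size were not detectable. The SE is not a detection limit, and larger changes could also be missed. Sp4 in D2 MSNs, at 0.83 ± 0.26, was not called.

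In PFC excitatory neurons, the group with the most UMIs, the log2 FC of Setd1a+/- over WT was 0.08 ± 0.17 for Herc1, -0.04 ± 0.19 for Cul1 and -0.04 ± 0.20 for Xpo7. It was 0.11 ± 0.18 for Trio, 0.05 ± 0.20 for Rb1cc1 and -0.39 ± 0.23 for Sp4, all with edgeR FDR near 1. Setd1a in the same fit was -0.49 ± 0.35, with 11.1 and 12.5 CPM in WT against 6.41 and 10.5 CPM in Setd1a+/- libraries. In D1 MSNs the members ranged from -0.09 ± 0.18 (Xpo7) to 0.27 ± 0.21 (Sp4).

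The 4 member tests with an unadjusted p < 0.05 involved Sp4 and Trio, and none passed adjustment. Sp4 in D2 MSNs was 12.5 and 12.3 CPM in WT against 22.7 and 20.3 CPM in Setd1a+/- libraries, with a log2 FC of 0.83 ± 0.26 (edgeR FDR = 1.00). In PFC OPCs it was 25.5 and 31.3 CPM against 3.95 and 16.1 CPM, a log2 FC of -1.6 ± 0.63 (FDR = 0.999), which became -0.79 without Setd1a+/- replicate 1 and -2.82 without Setd1a+/- replicate 2. In DL-Nnat neurons it was 30.0 and 25.1 CPM against 16.6 and 12.6 CPM, a log2 FC of -0.90 ± 0.39 (FDR = 0.999).

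Trio in striatal interneurons was 54.5 and 64.2 CPM in WT against 97.3 and 84.9 CPM in Setd1a+/- libraries, with a log2 FC of 0.66 ± 0.22 (edgeR FDR = 1.00). In PFC interneurons it was 97.2 and 61.7 CPM against 71.0 and 46.3 CPM. The difference between these genotype effects, tested as a genotype by tissue interaction, was -1.0 ± 0.41 (edgeR FDR = 1.00). None of 33 such interaction tests was called, beside 0% over all genes, and 1 had an unadjusted p < 0.05, or 3.03%, beside 2.21% over all genes.

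**Figure D5:**
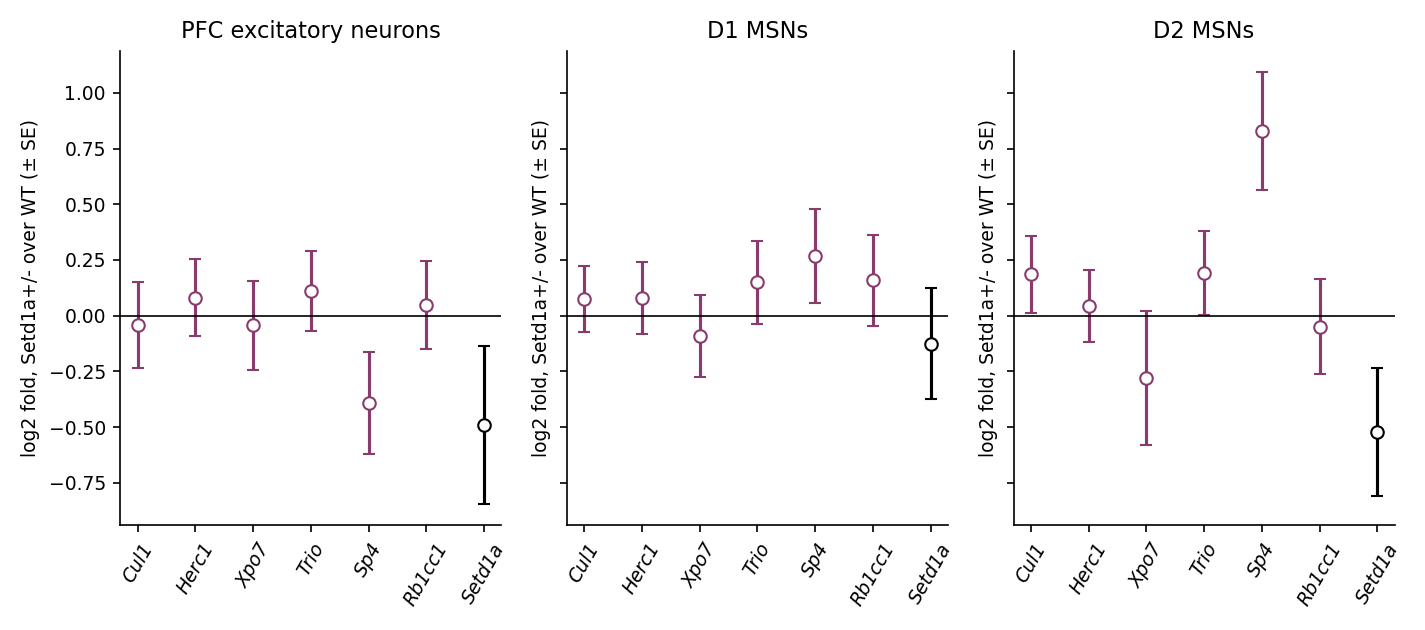
Difference between Setd1a+/- and WT as log2 FC with its SE (edgeR) for the 6 genes and Setd1a in PFC excitatory neurons, D1 MSNs and D2 MSNs. None is called, and Sp4 in D2 MSNs lies farthest from 0, at 0.83 ± 0.26.

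Partners in the same pathways were read in the comparison of neurons with non-neuronal cells. Of 16 cullin-RING ligase genes, 9 were called higher and 0 lower in PFC neurons (median log2 FC 0.72), with Cul3, another cullin scaffold, at 0.94 ± 0.10. In striatum 6 of 16 were higher (median 0.43). Of 11 autophagy initiation genes, 7 were higher in PFC (median 0.71) and 3 in striatum (median 0.48). Ulk1, the kinase held by Rb1cc1, was not called, at 0.34 ± 0.15 and -0.14 ± 0.16.

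Kalrn, the closest relative of Trio, was higher in neurons by 3.58 ± 0.13 in PFC (edgeR FDR = 4.21e-09) and 2.20 ± 0.13 in striatum (FDR = 1.41e-07). In NFOs, where Trio peaked, Kalrn was at 6.81 ± 6.78 CPM in PFC and had 0 UMIs in striatum. Of 10 nuclear export genes, 5 were higher and 1 lower in PFC (median 0.59) and 2 higher and 1 lower in striatum (median 0.14). The lower one was Xpo4, another exportin, at -1.20 ± 0.14 and -0.91 ± 0.12.

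Of the Sp family, 2 of 3 tested genes were lower in PFC neurons and 0 higher (median -1.26), and in striatum 1 of 6 was higher and 2 lower (median -0.51). Sp3 had -0.53 ± 0.13 and -0.49 ± 0.12, short of the FC cutoff. Of 4 other HERC genes, 2 were higher in PFC (median 0.47), among them Herc2 at 0.62 ± 0.12, and 1 was higher and 1 lower in striatum (median -0.24). These counts stand beside the 31.5% and 27.4% of all genes called higher and the 33.6% and 33.2% called lower in neurons of PFC and striatum.

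The other 3 genes usually listed with these risk genes encode synaptic or ion channel subunits. Grin2a, an NMDA receptor subunit, was higher in neurons by 5.64 ± 0.25 in PFC and 3.44 ± 0.30 in striatum. Gria3, an AMPA receptor subunit, was higher by 2.42 ± 0.10 and 1.5 ± 0.14, and Cacna1g, a T-type calcium channel, by 2.74 ± 0.29 in PFC, with 0.91 ± 0.38 in striatum (edgeR FDR = 0.0506). Along the oligodendrocyte lineage Gria3 was higher in OPCs than in oligodendrocytes by 3.93 ± 0.25 in PFC and 3.99 ± 0.23 in striatum, as was Trio. From OPC to NFO, Gria3 was lower by a log2 FC of -1.65 ± 0.19 and -1.67 ± 0.30, whereas Trio was higher.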

How the data were processed

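Tissue was dissociated with papain and profiled with 10x Chromium 3′ chemistry. Per the labels and the study's methods, the authors aligned to mm10 and counted UMIs with Cell Ranger 3.0.2, and annotated cells with Seurat 3.2.0 after removing cells with fewer than 800 genes or over 10% mitochondrial UMIs. The deposited values are raw UMI counts per gene and barcode, with cell types for the kept cells. No doublet caller was run here. PCR duplicates are collapsed by UMI, so intervals and floors would cover counting error only.

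Counts of annotated cells were summed per library and type, and fitted with edgeR 4.0.16 (R 4.3.3): TMM scaling, filterByExpr with a minimum count of 10, and the two-sided quasi-likelihood test with Benjamini-Hochberg adjustment over all genes of a fit. SE is the absolute log2 FC over the square root of F. Comparisons of cell classes carried the library as a block, those of tissues a genotype term. A type was fitted where each library gave it at least 10 cells. Alternatives used DESeq2 1.42.0, limma 3.58.1 on log2(CPM + 1), other scaling, no filter, and each library left out. The fitting code was tested on simulated data.

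The members and lists were chosen with earlier results of these data known. All 6 members are reported, and from each pathway list 1 gene was named by function beside the other risk genes. Likeness was the Pearson correlation over 18 groups among genes reaching 10 CPM in at least 3. Same-numbered libraries of the genotypes belong to 1 biological replicate per the methods, and their deviations from group means correlated with a median r of 0.37 over PFC types, 0.19 over striatal types and 0.46 over excitatory subtypes. Some genes that these rules also select are not reported here.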

Additional observations from a re-analysis of the deposited data

How the results depend on the processing

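Of 677 alternatives for single members, 604 kept direction and side of the threshold, 20 fell short of it, 21 newly passed it and 32 changed sign. No value that changed sign had been called. Of 14 called single-member results, 9 were called in every alternative. The cause of the changes was not tested.

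The number of members called moved as follows. Between neurons and non-neuronal cells of PFC, weighting cell types equally gave 5 instead of 3. There Rb1cc1 lost its call in 1 and Xpo7 in 4 of 11 alternatives, and Cul1 and Trio gained one in 2 each. In striatum Xpo7 gained a call in 3 and Trio in 1 of 11. Between OPCs and oligodendrocytes, library size alone gave 3 in PFC and 4 in striatum instead of 1, and in striatum no filter and DESeq2 gave 2 each, and leaving out a library 1 to 2. Between NFOs and OPCs of PFC, no filter and DESeq2 gave 1 each instead of 2, and leaving out a library 1 to 2. Between NFOs and oligodendrocytes of PFC, no filter gave 3 instead of 1, and leaving out a library 1 to 2. Leaving out a library gave 0 to 1 between excitatory neurons and interneurons and between tissues, and DESeq2 gave 0 between tissues. Where an arm was left with 1 library, that library was assumed to vary like the others. Thinning to 1000 UMIs gave Trio shares of 24.7% and 9.28% in PFC NFOs and OPCs, and 24.0%, 8.55% and 0.470% in striatal NFOs, OPCs and oligodendrocytes.

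Scaling by library size alone also moved the share of calls that were higher in the first group from 48.2% to 73.4% and from 47.4% to 71.6% for NFOs against oligodendrocytes, with medians of 0.43 and 0.44 over all genes, and from 66.0% to 76.5% for D1 against D2 MSNs. Signs turned with library size alone for Xpo7 between D1 and D2 MSNs (0.026), for Rb1cc1 (0.54), Cul1 (0.18) and Sp4 (0.25) between OPCs and oligodendrocytes of PFC, for NFOs against oligodendrocytes in Herc1 in PFC (0.15) and Cul1 in striatum (0.21), and for the genotype value of Herc1 in D2 MSNs (-0.0026). Without the filter Herc1 between OPCs and oligodendrocytes of PFC was -0.012. Leaving out each library in turn also changed signs. For excitatory neurons against interneurons of PFC, the range was Sp4 -0.35 to 0.21. For D1 against D2 MSNs, the range was Xpo7 -0.15 to 0.025, Herc1 -0.026 to 0.10. For OPCs against oligodendrocytes of PFC, the range was Rb1cc1 -0.21 to 0.052, Xpo7 -0.014 to 0.34, Herc1 -0.043 to 0.21. For genotype in excitatory neurons, the range was Rb1cc1 -0.12 to 0.23, Cul1 -0.19 to 0.13, Xpo7 -0.18 to 0.11. For genotype in D1 MSNs, the range was Rb1cc1 -0.060 to 0.36, Xpo7 -0.19 to 0.019, Herc1 -0.082 to 0.22, Trio -0.065 to 0.33. For genotype in D2 MSNs, the range was Rb1cc1 -0.28 to 0.18, Xpo7 -0.76 to 0.15, Herc1 -0.019 to 0.11. In the same fits, the genotype value of Sp4 ranged from -0.57 to -0.23 in excitatory neurons and from -2.82 to -0.79 in PFC OPCs.

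With the replicate block, same-numbered libraries being paired, 0 members were called between genotypes in cell types or subtypes, in 21 results refitted, and no call changed. DL-Pou3f1 could not be fitted because 2 libraries had fewer than 10 of its cells. Xpo7 had 9 UMIs in PFC microglia and Sp4 had 5 in striatal microglia, and in striatal NFOs Xpo7 had 9 and Sp4 had 4. In these combinations a difference was not detectable at this depth.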
